A study of Homo sapiens with 18 samples.

Results

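The DLK1-MEG3 domain is an imprinted cluster on the long arm of human chromosome 14. It is described here through the rows of 6 of its genes, DLK1, MEG3, MEG8, MEG9, RTL1 and DIO3, out of 26485 gene rows in each count file. The 6 rows were taken by symbol, and the domain was chosen by values measured in these same libraries: the lower MEG3 level of LIS1+/- stem cells, and the higher DLK1 level of LIS1+/+ organoids at Day 5 against LIS1+/+ stem cells. Differences between genotypes in stem cells, between Day 5 and stem cells in LIS1+/+, and those of the genotype difference between stem cells and a later stage are therefore given as descriptions with no p-value. Other tests that reuse the stem cell libraries or the Day 5 LIS1+/+ libraries keep their p-values, which are not independent of that choice.

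In an imprinted domain the copy of a gene that is read depends on the parent it came from. In this cluster the copy from the mother gives the non-coding RNAs MEG3, MEG8 and MEG9 together with a large set of small nucleolar RNAs and microRNAs, while DLK1, RTL1 and DIO3 are read mainly from the copy of the father. A stretch of DNA between DLK1 and MEG3, methylated on the paternal copy alone, governs both sides, and human pluripotent stem cell lines are known to vary in how strongly they express MEG3.

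RNA was sequenced from WIBR3, a line of human embryonic stem cells (hESC), and from organoids grown from it, by bulk MARS-seq, in which reads come from the 3′ end of each transcript. LIS1+/- cells, which carry 1 altered copy of LIS1, were compared with LIS1+/+ cells at 3 stages: hESC, Day 5 organoids and Day 12 organoids. LIS1 (gene symbol PAFAH1B1) encodes a regulator of the motor protein dynein. Each of the 6 groups had 3 libraries, and nothing in the labels says whether these came from separate cultures, so p-values measure the spread between libraries, which may be technical. How many LIS1+/- clones were used, and how LIS1 was altered, the labels do not state, and a difference between genotypes cannot be told apart from one between clones. Every stage has its own pool name in the deposited files, so stage and pool cannot be told apart either.

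Counts over genes ranged from 1425098 to 4501489 per library. Levels are given as CPM, counts scaled to a common library size with TMM factors, and fitted differences as log2 fold changes with their standard error (SE). PAFAH1B1 itself lay between 51.4 and 61.2 CPM in LIS1+/- hESC and between 72.1 and 111 CPM in LIS1+/+ hESC. Its range was 84.3 to 105 CPM in LIS1+/- against 130 to 152 CPM in LIS1+/+ at Day 5, and 76.1 to 114 CPM against 140 to 218 CPM at Day 12, so the genotypes did not overlap at any stage. The fitted LIS1+/- level was 62.7%, 66.7% and 58.2% of LIS1+/+ from hESC to Day 12, past the threshold at Day 12 (adjusted p = 0.0372, edgeR, in 5 of 12 alternatives) and not at Day 5 (adjusted p = 0.148). The 5 markers of pluripotent stem cells summed to 2387 to 2647 CPM in LIS1+/- hESC and to 3134 to 3378 CPM in LIS1+/+ hESC, against at most 130 and 216 CPM at Day 12, and all 5 markers of neural progenitors passed the test as higher at Day 5 than in hESC in both genotypes.

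Promoter windows from RefSeq (GRCh38.p14) are shown for MEG3 and MEG9, the maternal RNAs that were low in LIS1+/-, and for DIO3, the member that passed the test as higher at Day 5. Each holds the 250 bases before the RefSeq start on the plus strand, and 4 of the 6 members have an entry. Capitals mark exact matches on either strand to the cAMP response element TGACGTCA, the TATA box TATAAA, the CCAAT box (CCAAT, or ATTGG on the other strand) and the motif TGCCGC of the imprint-protecting zinc finger protein ZFP57 (GCGGCA on the other strand); no matches overlap.
MEG3, chr14:100825858-100826107: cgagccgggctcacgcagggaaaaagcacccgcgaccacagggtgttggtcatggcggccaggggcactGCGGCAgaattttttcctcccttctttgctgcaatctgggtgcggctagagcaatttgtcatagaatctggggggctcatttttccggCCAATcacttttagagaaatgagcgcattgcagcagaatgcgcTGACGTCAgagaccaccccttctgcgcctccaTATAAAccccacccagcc
MEG9, chr14:101069661-101069910: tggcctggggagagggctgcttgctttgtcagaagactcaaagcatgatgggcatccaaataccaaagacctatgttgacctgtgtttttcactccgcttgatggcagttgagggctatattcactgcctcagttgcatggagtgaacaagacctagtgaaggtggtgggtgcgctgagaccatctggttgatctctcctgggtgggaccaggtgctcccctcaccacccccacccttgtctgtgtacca
DIO3, chr14:101561245-101561494: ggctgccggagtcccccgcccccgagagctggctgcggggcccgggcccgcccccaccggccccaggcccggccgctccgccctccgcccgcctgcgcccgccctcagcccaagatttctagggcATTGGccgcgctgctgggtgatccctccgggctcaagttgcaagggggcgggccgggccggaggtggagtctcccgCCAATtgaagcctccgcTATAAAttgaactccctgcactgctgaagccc
The MEG3 window matched all 4 motifs, the DIO3 window matched the TATA box once and the CCAAT box on both strands, and the MEG9 window matched none of them. Of 35116 windows of the same length, 1.65% held TGACGTCA, 10.7% TATAAA, 32% CCAAT and 12.7% TGCCGC on either strand. The MEG3 window held 13 CpG sites, a number reached by 46.6% of windows, the MEG9 window 2 (85.3%) and the DIO3 window 22 (28%). A match describes the letters of the window and is not a measured site.

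MEG3 was lower in LIS1+/- than in LIS1+/+ at every stage, DLK1 was higher in LIS1+/- hESC and lower at Day 12, and DIO3 was higher at Day 5. Of the 6 members, 4 (DLK1, MEG3, MEG9 and DIO3) passed the filter on low counts and were tested, so the counts that follow leave out MEG8 and RTL1. At Day 5 MEG3 fell and DIO3 rose in LIS1+/-, where 1.95% of tested genes passed. At Day 12 MEG3 and DLK1 fell in LIS1+/-, where 1.4% passed. The genotype difference changed between Day 5 and Day 12 for DLK1 and DIO3, where 1.06% of tested genes did.

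Libraries of the genotypes also separated without overlap. In hESC MEG3 and MEG9 were lower throughout in LIS1+/- (7.69% of tested genes were) and DLK1 was higher (10.6%), which is given as a description since the hESC contrast chose the domain. At Day 5 MEG3 and MEG9 were lower (9.45%) and DIO3 was higher (8.06%), and at Day 12 MEG3 and DLK1 were lower (8.43%). Stage differences were common among all genes: 43.7% of tested genes passed at Day 5 against hESC in LIS1+/- and 44.6% in LIS1+/+, and 16.5% passed at Day 12 against Day 5 in LIS1+/- and 24.5% in LIS1+/+. The members passed in 2 of 4 cases at Day 5 against hESC in LIS1+/-. At Day 12 against Day 5 they passed in 3 of 4 in LIS1+/- and 2 of 4 in LIS1+/+. These counts are read against that high background. No count is given for Day 5 against hESC in LIS1+/+, the contrast by which the domain was chosen. The counts for Day 5 against hESC in LIS1+/- and for Day 12 against Day 5 in LIS1+/+ reuse libraries of the choice.

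MEG3 is the long non-coding RNA that opens the maternal transcripts. The gene spans chr14:100779410-100861031 on the plus strand in GENCODE 29 (GRCh38), and the RefSeq start used for its window lies inside that span. In hESC the LIS1+/- libraries had 4.42, 0.451 and 6.49 CPM, against 34.3, 30.7 and 14.3 CPM in LIS1+/+. At Day 5 the LIS1+/- libraries had 5.23, 5.12 and 4.39 CPM, against 28.2, 53.6 and 48.7 CPM in LIS1+/+. At Day 12 the LIS1+/- libraries had 1.24, 0.854 and 0.285 CPM, against 30.4, 10.7 and 20 CPM in LIS1+/+. The highest LIS1+/- library lay under the lowest LIS1+/+ library at each stage. Of the 12215 genes tested, 36 (0.295%) were lower in LIS1+/- without overlap at all 3 stages, a description that includes the hESC difference by which the domain was chosen.

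In hESC the MEG3 difference was -2.76 ± 0.50 (log2, SE), a level of 14.8% of LIS1+/+, which is a description since the gene was chosen knowing it. Over 12 alternatives that difference ran from -3.59 (without LIS1+/- replicate 3, the highest of its group) to -2.23. Day 5 organoids had averages of 4.91 ± 0.458 CPM in LIS1+/- and 43.5 ± 13.5 CPM in LIS1+/+ (SD, n = 3 each), an 8.83-fold lower level by the fit (log2 fold change -3.14 ± 0.44, adjusted p = 0.000149, edgeR quasi-likelihood test with Benjamini-Hochberg adjustment). Day 12 averages were 0.792 ± 0.479 CPM in LIS1+/- and 20.3 ± 9.84 CPM in LIS1+/+ (SD, n = 3 each), 27.2-fold lower (-4.76 ± 0.65, adjusted p = 0.000193, same edgeR test). MEG3 thus fell in LIS1+/- at both organoid stages, which 20 tested genes (0.164%) did. Only 70 genes had a lower log2 fold change than MEG3 at Day 5, and 21 at Day 12.

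The LIS1+/- values at Day 12 rest on 2, 3 and 1 counts, against 47, 17 and 41 counts in LIS1+/+. Pooled over libraries, 6 counts against 105 gave a ratio of 0.0343 with an exact 95% interval of 0.0123 to 0.0773, which covers counting error only. The same pooled ratio was 0.111 (0.0795 to 0.152) at Day 5, from 43 counts against 571, and 0.146 (0.0922 to 0.223) in hESC, from 26 counts against 141. The genotype difference of Day 12 minus that of Day 5 was -1.62 ± 0.86, which did not pass (adjusted p = 0.454, edgeR quasi-likelihood test). In bulk samples fewer cells that express a gene and less of its RNA per cell cannot be told apart.

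**Figure D1:**
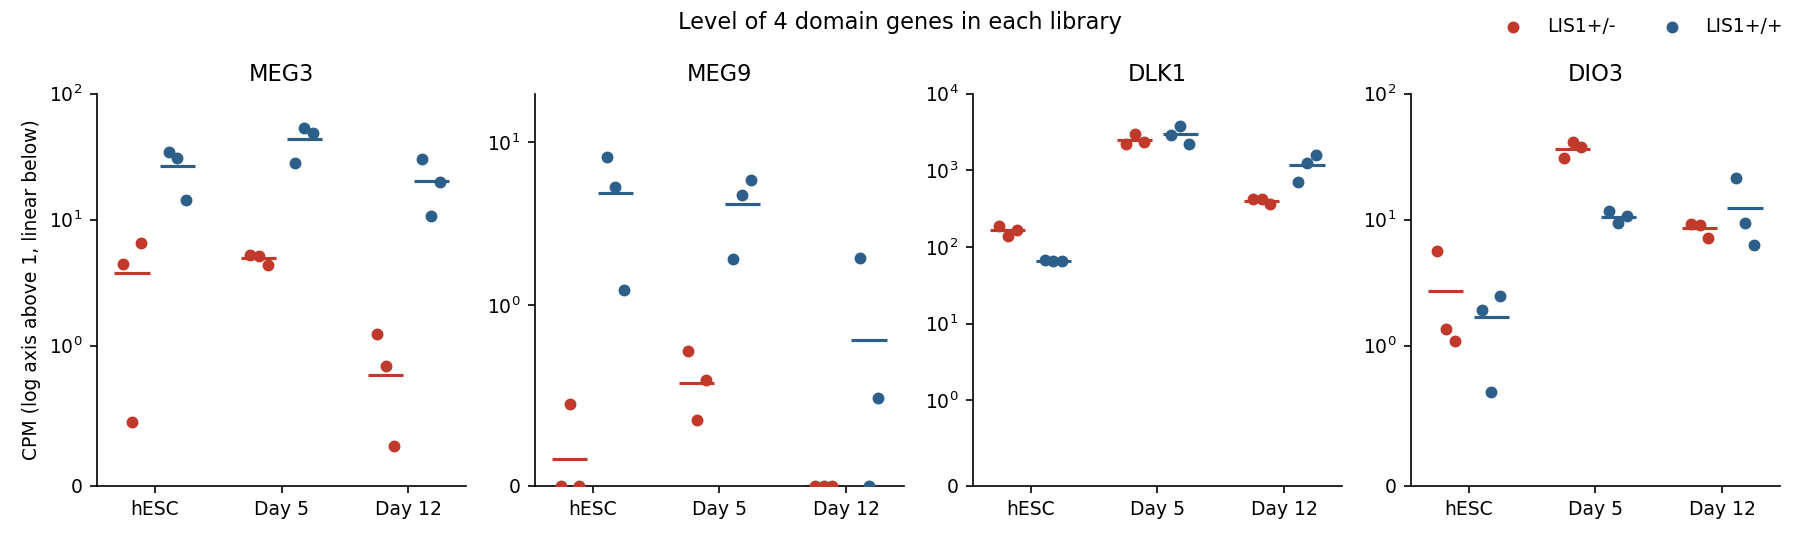
Levels of MEG3, MEG9, DLK1 and DIO3 in CPM (vertical axis, logarithmic above 1 and linear below) by stage (horizontal axis). Points are libraries and bars the mean of 3, LIS1+/- left of LIS1+/+: MEG3 does not overlap between genotypes at any stage, and DLK1 is higher in LIS1+/- hESC (138 to 189 CPM) than in LIS1+/+ hESC (64.8 to 66.7 CPM) but lower at Day 12 (363 to 423 against 696 to 1580 CPM).

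Within each genotype the stages were compared next. The MEG3 level at Day 5 against hESC differed by 0.33 ± 0.57 in LIS1+/- (adjusted p = 0.67, edgeR; 1.16 without hESC LIS1+/- replicate 3 and -0.20 without replicate 2) and by 0.71 ± 0.38 in LIS1+/+ (no test). At Day 12 it was 6.6-fold lower than at Day 5 in LIS1+/- (-2.72 ± 0.74, adjusted p = 0.0126, edgeR), and the libraries of the 2 days did not overlap. That call was lost without Day 12 LIS1+/- replicate 3 (-2.26, adjusted p = 0.0783), the library with 1 MEG3 count. In LIS1+/+ the Day 12 level was 2.14-fold lower (-1.10 ± 0.39, adjusted p = 0.0427, edgeR), with 1 Day 12 library inside the range of Day 5. The call was lost without Day 5 LIS1+/+ replicate 2 (adjusted p = 0.165) or 3 (0.111), without Day 12 LIS1+/+ replicate 2 (0.171) or 3 (0.0929), and without 3 libraries that an earlier analysis found apart in GC content (replicate 3 of LIS1+/+ hESC, replicate 2 of LIS1+/- at Day 5, and replicate 2 of LIS1+/+ at Day 12; 0.111).

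By mean level, MEG3 ran from Day 5 LIS1+/+ (43.5 CPM) through hESC LIS1+/+ (26.4 CPM), Day 12 LIS1+/+ (20.3 CPM), Day 5 LIS1+/- (4.91 CPM) and hESC LIS1+/- (3.79 CPM) to Day 12 LIS1+/- (0.792 CPM). Neighbours in that order overlapped, except at the step between Day 12 LIS1+/+ and Day 5 LIS1+/-.

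MEG9 is the maternal long non-coding RNA at the far end of the microRNA cluster (chr14:101064151-101072937, plus strand), 285 kb beyond the MEG3 start. It was low throughout. In hESC the LIS1+/- libraries had 0, 1 and 0 counts, against 17, 8 and 2 counts in LIS1+/+. At Day 5 the LIS1+/- libraries had 2, 1 and 2 counts (0.748, 0.366 and 0.585 CPM), against 8, 21 and 26 counts in LIS1+/+ (1.93, 4.73 and 5.86 CPM). At Day 12 no LIS1+/- library had a count, and the LIS1+/+ libraries had 3, 0 and 1. The genotypes did not overlap in hESC or at Day 5, and they shared a library at 0 at Day 12.

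The Day 5 difference of MEG9 was -2.79 ± 0.82 and did not pass the threshold (adjusted p = 0.0908, edgeR quasi-likelihood test), and none of the 12 alternatives passed it (adjusted p between 0.0609 and 0.28). As a ratio of pooled counts MEG9 was 7.46-fold lower in LIS1+/- at Day 5 (95% counting interval 3.01 to 23.9). In hESC the same ratio was 34.1-fold lower, with an interval of 5.62 to 1396 from a single LIS1+/- count. At Day 12, with 0 counts in LIS1+/- and 4 in LIS1+/+, 3 of them in replicate 1, the difference did not pass (adjusted p = 0.332, edgeR), and no fold is given. Between stages, the Day 12 level of LIS1+/+ differed from its Day 5 level by -2.36 ± 0.89, which did not pass (adjusted p = 0.0542, edgeR) except without Day 5 LIS1+/+ replicate 1 (-2.69, adjusted p = 0.0403) or Day 12 LIS1+/+ replicate 1 (-3.73, adjusted p = 0.0314). By mean level MEG9 was highest in LIS1+/+ hESC (4.89 CPM) and Day 5 LIS1+/+ (4.18 CPM), followed by Day 12 LIS1+/+ (0.808 CPM), Day 5 LIS1+/- (0.566 CPM) and LIS1+/- hESC (0.15 CPM), and was at 0 in Day 12 LIS1+/-, with each group's libraries overlapping those of its neighbour in that order.

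MEG9 was also set against MEG3 as its share of the summed counts of both. The share over all stages was 7.41% in LIS1+/- (6 of 81 counts, exact 95% interval 2.77 to 15.4%) and 9.52% in LIS1+/+ (86 of 903 counts, 7.69 to 11.6%), intervals that overlap. In LIS1+/+ the share was 16.1% in hESC, with an interval of 10.9 to 22.5%. It was 8.79% at Day 5, with an interval of 6.69 to 11.3%, and 3.67% at Day 12, with one of 1.01 to 9.13%. Both RNAs are counted in the same libraries, and the intervals cover counting error only.

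MEG8, the maternal RNA that hosts small nucleolar RNAs (chr14:100894770-101038859, plus strand), had 1 count in all 18 libraries, in hESC LIS1+/+ replicate 3, and could not be compared. Rows of the small RNAs that lie in the maternal transcripts were almost empty too. Of 41 rows of the SNORD112, SNORD113 and SNORD114 family, 32 had no count, and the others summed to 0 counts in LIS1+/- and 7 in LIS1+/+ hESC, to 4 and 19 at Day 5, and to 0 and 0 at Day 12. Of 52 microRNA rows, 50 had no count, and the 4 counts of MIR370 and MIR337 all lay in Day 5 LIS1+/+. As background, mature microRNAs lack a poly(A) tail, and counts in these rows are no measure of them.

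DLK1 encodes a membrane protein with EGF-like repeats that acts as a non-canonical ligand of the Notch pathway. Of DLK1, RTL1 and DIO3, it has the GENCODE start nearest to that of MEG3 (chr14:100725705-100738224, plus strand, at -53.7 kb, against 124 kb for RTL1). Its genotype difference had a different sign in hESC and at Day 12. In hESC the LIS1+/- libraries had 189, 138 and 166 CPM, against 66.7, 64.8 and 66.4 CPM in LIS1+/+. At Day 5 the LIS1+/- libraries had 2211, 3010 and 2310 CPM, against 2843, 3770 and 2178 CPM in LIS1+/+. At Day 12 the LIS1+/- libraries had 423, 417 and 363 CPM, against 696, 1228 and 1580 CPM in LIS1+/+. Thus all LIS1+/- libraries were above LIS1+/+ in hESC and below it at Day 12, and the genotypes overlapped at Day 5.

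In hESC the level of DLK1 was 2.49-fold higher in LIS1+/- (1.32 ± 0.24, no test). At Day 5 the difference was -0.22 ± 0.22 (adjusted p = 0.787, edgeR quasi-likelihood test). At Day 12 DLK1 fell 2.92-fold in LIS1+/- (-1.54 ± 0.23, adjusted p = 0.000474, same test), with averages of 401 ± 33 CPM in LIS1+/- and 1168 ± 445 CPM in LIS1+/+ (SD, n = 3 each). The Day 12 genotype difference was lower than that of Day 5 by -1.32 ± 0.31 (adjusted p = 0.0366, edgeR), a call that held in 6 of 18 alternatives. The alternatives that lost it included the fit of the compared libraries alone (adjusted p = 0.124), the fit without the 3 libraries apart in GC content (0.261) and those without any 1 of 9 libraries (0.0582 to 0.119). These were Day 5 LIS1+/- replicates 2 and 3, Day 5 LIS1+/+ replicates 1 and 3, Day 12 LIS1+/- replicates 1, 2 and 3, and Day 12 LIS1+/+ replicates 2 and 3. Against hESC the Day 12 difference was lower by -2.86 ± 0.33, with no test.

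Over the stages DLK1 was highest at Day 5 in both genotypes. In LIS1+/- it rose 15.3-fold at Day 5 against hESC (3.93 ± 0.25, adjusted p = 1.13e-11, edgeR), and in LIS1+/+ it was 44.4-fold higher (5.47 ± 0.27), the increase known when the genes were chosen. At Day 12 against Day 5 it fell 6.27-fold in LIS1+/- (-2.65 ± 0.23, adjusted p = 3.98e-08, edgeR) and 2.51-fold in LIS1+/+ (-1.33 ± 0.22, adjusted p = 0.000153, edgeR). The domain was chosen by high DLK1 in the Day 5 LIS1+/+ libraries, so the fall from them in LIS1+/+ is favoured by that choice. The rise in LIS1+/- is the same step in the other genotype, and its p-value is not independent of the choice either. The order of mean levels was Day 5 LIS1+/+ (2930 CPM), Day 5 LIS1+/- (2510 CPM), Day 12 LIS1+/+ (1168 CPM), Day 12 LIS1+/- (401 CPM), hESC LIS1+/- (165 CPM) and hESC LIS1+/+ (66 CPM), and the Day 5 groups alone overlapped as neighbours.

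RTL1, a gene derived from a retrotransposon and required for the capillaries of the placenta in mice, had 2 counts in all, both in Day 5 LIS1+/+ replicate 1. It lies on the minus strand (chr14:100879753-100903722) across from the start of MEG8, and the sources used here do not say if strand was considered. No difference of RTL1 was detectable at this depth.

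DIO3 encodes the deiodinase that inactivates thyroid hormone and closes the domain (chr14:101561351-101563452, plus strand, 782 kb beyond the MEG3 start). At Day 5 it was high in LIS1+/-, while the genotypes overlapped in hESC and at Day 12. In hESC the LIS1+/- libraries had 5.68, 1.35 and 1.08 CPM, against 1.9, 0.668 and 2.48 CPM in LIS1+/+. At Day 5 the LIS1+/- libraries had 31, 41.3 and 37.5 CPM, against 11.6, 9.46 and 10.6 CPM in LIS1+/+. At Day 12 the LIS1+/- libraries had 9.27, 9.1 and 7.12 CPM, against 21.3, 9.44 and 6.33 CPM in LIS1+/+. Day 12 LIS1+/+ replicate 1 stood above the other 5 libraries of its day.

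At Day 5 DIO3 rose 3.46-fold in LIS1+/- (1.79 ± 0.35, adjusted p = 0.0044, edgeR quasi-likelihood test), with averages of 36.6 ± 5.2 CPM in LIS1+/- and 10.5 ± 1.06 CPM in LIS1+/+ (SD, n = 3 each). At Day 12 the difference was -0.52 ± 0.41 (adjusted p = 0.63, edgeR), and it had the opposite sign without LIS1+/+ replicate 1 (0.11, adjusted p = 0.949). The genotype difference of Day 12 minus that of Day 5 was -2.31 ± 0.54 (adjusted p = 0.0309, edgeR), a call that held in 9 of 18 alternatives. Without Day 12 LIS1+/+ replicate 1 it was -1.68 (adjusted p = 0.166), and it also missed the threshold without any 1 of Day 5 LIS1+/+ replicates 1, 2 and 3, Day 5 LIS1+/- replicates 2 and 3, and Day 12 LIS1+/- replicates 1, 2 and 3 (adjusted p between 0.0552 and 0.106).

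In LIS1+/- DIO3 rose 15.2-fold at Day 5 against hESC (3.92 ± 0.46, adjusted p = 1.25e-07, edgeR; 4.85 without hESC LIS1+/- replicate 1) and fell 4.33-fold at Day 12 against Day 5 (-2.11 ± 0.37, adjusted p = 0.000224, edgeR). In LIS1+/+ it was 5.98-fold higher at Day 5 than in hESC (2.58 ± 0.54, no test), and the difference of Day 12 against Day 5 was 0.20 ± 0.39 (adjusted p = 0.748, edgeR). Mean levels ran from Day 5 LIS1+/- (36.6 CPM) through Day 12 LIS1+/+ (12.4 CPM), Day 5 LIS1+/+ (10.5 CPM), Day 12 LIS1+/- (8.5 CPM) and hESC LIS1+/- (2.71 CPM) to hESC LIS1+/+ (1.69 CPM). Day 12 LIS1+/+ overlapped with Day 5 LIS1+/+, and the hESC groups overlapped with each other.

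DIO3OS, the non-coding RNA that starts beside DIO3 on the minus strand (chr14:101552221-101560431), had no count in hESC. At Day 5 it had 10, 2 and 13 counts in LIS1+/-, against 0, 8 and 0 in LIS1+/+, so the libraries overlapped. The pooled ratio was 4.61 (95% counting interval 2.01 to 11.8), and it did not pass the filter for the test. At Day 12 it had 5 counts in LIS1+/- and 2 in LIS1+/+. LINC00524, a non-coding RNA between MEG9 and DIO3, had 7 counts in LIS1+/- and 2 in LIS1+/+ at Day 5 and 0 and 1 at Day 12.

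**Figure D2:**
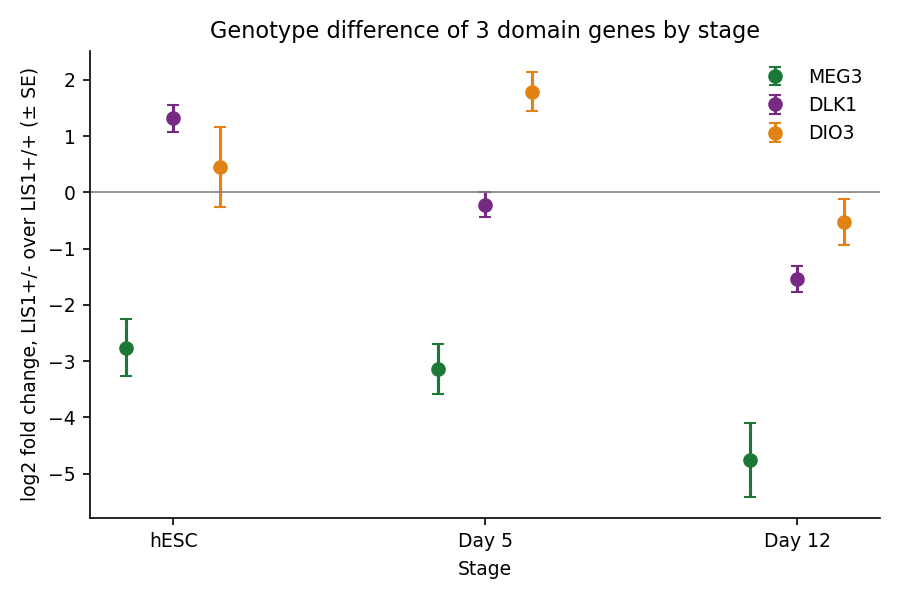
Fitted log2 fold change of LIS1+/- over LIS1+/+ (vertical axis, points, with SE as bars) for MEG3, DLK1 and DIO3 by stage (horizontal axis). MEG3 lies below 0 at each stage (-2.76, -3.14 and -4.76), DLK1 goes through 1.32, -0.22 and -1.54, and DIO3 is highest at Day 5 (1.79).

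The level of MEG3 relative to DLK1 was compared within each library as the log2 of the ratio of their counts, with 0.5 added to each, which needs no scaling of libraries. Tag counts are not divided by transcript length, so the ratio is compared between groups and not read as a ratio of molecules, and it is a description with no test. In hESC it was -5.32, -7.67 and -4.64 in the LIS1+/- libraries, against -0.95, -1.07 and -2.19 in LIS1+/+. At Day 5 it was -8.67, -9.15 and -8.99 in LIS1+/-, against -6.65, -6.13 and -5.48 in LIS1+/+. At Day 12 it was -8.10, -8.71 and -9.73 in LIS1+/-, against -4.50, -6.80 and -6.29 in LIS1+/+. At each stage the highest LIS1+/- ratio was below the lowest LIS1+/+ ratio.

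The difference of the mean ratios was -4.47 in hESC, -2.85 at Day 5 and -2.98 at Day 12 (LIS1+/- minus LIS1+/+, log2). In hESC the SD over libraries was 1.59 in LIS1+/- and 0.68 in LIS1+/+, at Day 5 0.24 and 0.59, and at Day 12 0.82 and 1.21. The LIS1+/- hESC libraries had 7, 1 and 18 MEG3 counts. The lowest ratio (-7.67, replicate 2) rests on the single count, where the added 0.5 weighs most, and lowers the hESC mean. As pooled counts there were 41 DLK1 counts per MEG3 count in LIS1+/- hESC against 2.44 in LIS1+/+ hESC, 513 against 66.9 at Day 5 and 570 against 59.8 at Day 12. With MEG8 and MEG9 added to MEG3, the differences of the mean ratios were -4.46, -2.83 and -3.02. The ratio was lower at Day 5 than in hESC in both genotypes, where DLK1 was higher in both and the libraries of MEG3 overlapped.

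**Figure D3:**
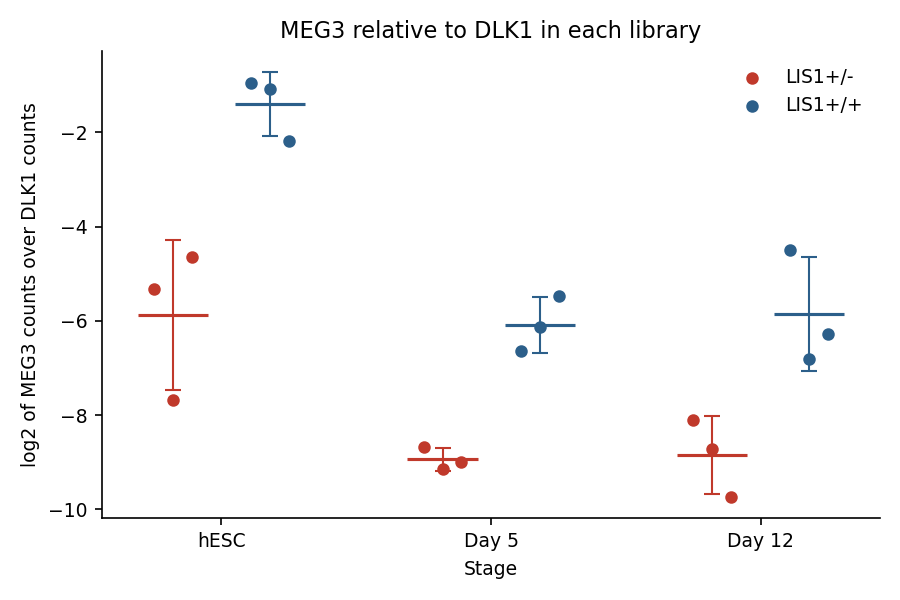
Log2 ratio of MEG3 counts to DLK1 counts in each library (vertical axis) by stage (horizontal axis). Points are libraries, long bars the mean and error bars the SD of 3, LIS1+/- left of LIS1+/+: the means are -5.88 against -1.41 in hESC, -8.94 against -6.09 at Day 5 and -8.85 against -5.87 at Day 12.

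No tested gene on either side of the domain passed as different between genotypes. Of 20 listed neighbours 17 were tested, and with edgeR 0 passed as higher and 0 as lower in LIS1+/- at each of the 3 stages, where 3, 0 and 0 had an unadjusted p under 0.05 and DESeq2 called 0, 0 and 0. Over all tested genes 0.491%, 1.95% and 1.4% passed. Their median log2 fold changes were 0.12, 0.04 and -0.06, against 0.03, 0.01 and -0.01 over all tested genes. BEGAIN, at -192 kb from the MEG3 start and the nearest tested neighbour, had 1.77 ± 1.20, -0.50 ± 0.58 and -0.67 ± 0.73 from hESC to Day 12 (adjusted p = 0.83 at Day 5 and 0.747 at Day 12, edgeR). PPP2R5C, a phosphatase subunit 982 kb beyond the MEG3 start, had 0.09 ± 0.21, 0.06 ± 0.19 and -0.19 ± 0.19. DYNC1H1, the heavy chain of the dynein motor that LIS1 regulates, lies 1185 kb beyond MEG3 and had 0.11 ± 0.17, -0.14 ± 0.17 and -0.11 ± 0.17.

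Between stages some neighbours passed the test, as many genes did. At Day 5 against hESC, 4 of 17 rose and 1 fell in LIS1+/-, where 43.7% of all tested genes passed, and 6 rose and 3 fell in LIS1+/+, where 44.6% passed (edgeR, all genes adjusted together). WARS, a transfer RNA synthetase, fell at that step in both genotypes (-1.90 ± 0.17 in LIS1+/- and -1.54 ± 0.17 in LIS1+/+), and MOK, a protein kinase, rose in both (3.03 ± 0.51 and 4.23 ± 0.65, the second at 5.36 without hESC LIS1+/+ replicate 1). At Day 12 against Day 5, 0 rose and 1 fell in LIS1+/-, where 16.5% of all tested genes passed, and 1 rose and 3 fell in LIS1+/+, where 24.5% passed.

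**Figure D4:**
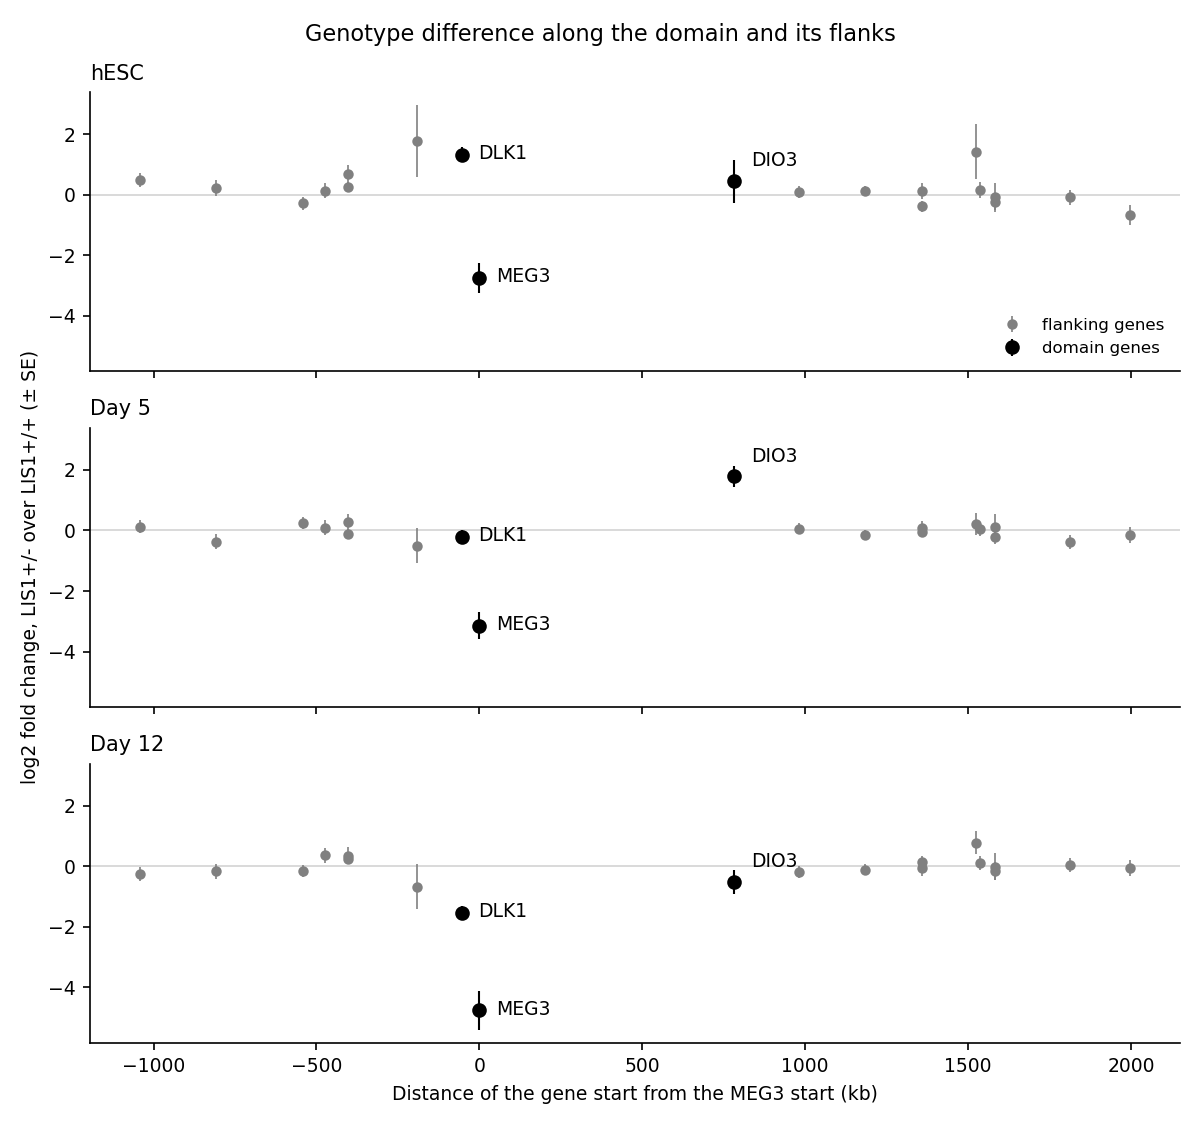
Fitted log2 fold change of LIS1+/- over LIS1+/+ (vertical axis, SE as bars) against the distance of each gene start from the MEG3 start in kb (horizontal axis), 1 panel per stage. Domain genes are black and the 17 tested flanking genes grey: MEG3 at 0 kb is below every flanking gene at each stage, DLK1 at -53.7 kb has its highest value in hESC (1.32), and DIO3 at 782 kb at Day 5 (1.79).

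Factors of imprint maintenance and DNA methylation were listed because the domain depends on a methylated control region. The list includes the TET demethylation enzymes and the Polycomb proteins EZH2 and JARID2. Of 18 listed, 14 were tested. In hESC and at Day 12 edgeR called 0 (2 and 1 had an unadjusted p under 0.05, and DESeq2 called 1 and 0). At Day 5, where 1.95% of all tested genes passed with edgeR, 3 had an unadjusted p under 0.05, DESeq2 called 2, and edgeR called 1 as lower. That gene was DNMT3B, a de novo DNA methyltransferase, with 90.1, 112 and 107 CPM in LIS1+/- against 203, 199 and 177 CPM in LIS1+/+ (-0.90 ± 0.15, adjusted p = 0.000743, edgeR). It is also abundant in pluripotent cells, with 1197 ± 24.2 CPM in LIS1+/- hESC and 1604 ± 45.2 CPM in LIS1+/+ hESC, and the 5 pluripotency markers summed to 418 to 547 CPM in LIS1+/- against 753 to 823 CPM in LIS1+/+ at Day 5, with NANOG at 0 in LIS1+/-. Of those 5 markers, 2 passed as lower there, and their part in the Day 5 results was not tested. AFF3, which binds methylated control regions of imprinted genes in mice, had 1.65 ± 0.48 at Day 5 and did not pass (adjusted p = 0.0799, edgeR), although it did with DESeq2 (0.0444) and without LIS1+/- replicate 3 (0.0462). ZFP57 itself was not among the tested genes.

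Imprinted genes of other domains were compared in the same way. Of 27 listed, 18 were tested, and 0 passed as different between genotypes at any single stage with edgeR, where 4, 2 and 2 had an unadjusted p under 0.05 over the 3 stages and DESeq2 called 1, 0 and 0. Their median log2 fold changes were 0.17, -0.07 and -0.19. CDKN1C, a maternally expressed inhibitor of the cell cycle, had 66.6 ± 6.49 CPM in LIS1+/- hESC and 36 ± 6.23 CPM in LIS1+/+ hESC (SD, n = 3 each), 106 ± 19.3 and 148 ± 15.3 CPM at Day 5, lower in LIS1+/- without overlap, and 284 ± 19.3 and 380 ± 121 CPM at Day 12. Its genotype difference was 0.89 ± 0.22 in hESC (no test), -0.48 ± 0.19 at Day 5 (adjusted p = 0.299, edgeR) and -0.42 ± 0.19 at Day 12 (adjusted p = 0.352, edgeR; 0.0375 without Day 12 LIS1+/+ replicate 2 and 0.00858 without the 3 libraries apart in GC content). Relative to hESC the genotype difference of CDKN1C was lower by -1.38 ± 0.30 at Day 5 and by -1.31 ± 0.29 at Day 12 (no test). Over 18 alternatives these values ran from -1.51 to -1.22 and from -1.55 to -1.13. At Day 5 against hESC 7 genes of the list rose and 5 fell in LIS1+/-, and 9 rose and 5 fell in LIS1+/+, against the same 43.7% and 44.6% of all tested genes, among them PLAGL1, a zinc finger factor, which rose in both (3.68 ± 0.26 and 4.13 ± 0.27).

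The genes of DLK1 processing and Notch partners listed beside DLK1 were all 11 tested. They include ADAM17 and FN1 besides Notch receptors, ligands and targets. LIS1+/- against LIS1+/+ gave 1 call, the receptor NOTCH1 at Day 5, with 87.1, 65.4 and 109 CPM in LIS1+/- against 125, 165 and 132 CPM in LIS1+/+ (-0.68 ± 0.18, adjusted p = 0.0378, edgeR). The call held in 5 of 12 alternatives and was lost without Day 5 LIS1+/- replicate 1 or 2 or any 1 LIS1+/+ library (adjusted p between 0.0556 and 0.237). At Day 5, 5 of the 11 had an unadjusted p under 0.05, DESeq2 called 2, and the list median was -0.25. Over all tested genes 1.95% passed with edgeR at that stage. In hESC and at Day 12 edgeR called 0, 2 genes at each had an unadjusted p under 0.05, and DESeq2 called 0. At Day 12, where DLK1 was lower in LIS1+/-, NOTCH1 averaged 154 ± 10.5 CPM in LIS1+/- and 153 ± 20.6 CPM in LIS1+/+, and the list median was -0.03. The target HES1 differed by 0.31 ± 0.16 there (adjusted p = 0.425, edgeR). The ligand DLL3 differed by -0.88 ± 0.29 (adjusted p = 0.158, edgeR), and neither passed. The ligand DLL1 rose at Day 5 against hESC in both genotypes (4.23 ± 0.27 in LIS1+/- and 4.57 ± 0.28 in LIS1+/+), as did the ligand JAG1 and the target HES1, and of the 11 genes 5 rose and 1 fell in LIS1+/- and 8 rose and 0 fell in LIS1+/+, where 43.7% and 44.6% of all tested genes passed.

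At Day 5, where 1.95% of all tested genes passed, thyroid hormone genes listed beside DIO3 gave 1 call, of 6 tested among 11. SLC7A8, an amino acid carrier that also moves thyroid hormone, fell at Day 5 to 159 ± 23.5 CPM in LIS1+/-, against 244 ± 22.5 CPM in LIS1+/+ (-0.62 ± 0.17, adjusted p = 0.0484, edgeR). That call held in 4 of 12 alternatives and was lost without Day 5 LIS1+/- replicate 2 or 3 or any 1 LIS1+/+ library (adjusted p between 0.0727 and 0.22). In hESC edgeR called 0 of the 6 (1 had an unadjusted p under 0.05, DESeq2 called 0). DIO1 and DIO2, the other deiodinases, did not pass the filter.

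Relatives of RTL1 that derive from the same class of retrotransposon gave 1 call among 7 tested of 10. That call was at Day 12, where 1.4% of all tested genes passed. RGAG4 fell at Day 12 to 47.6, 41.3 and 53.3 CPM in LIS1+/-, against 74.3, 90.6 and 83.2 CPM in LIS1+/+ (-0.80 ± 0.20, adjusted p = 0.0315, edgeR). The call held in 3 of 12 alternatives and was lost without any 1 of the 6 Day 12 libraries (adjusted p between 0.0506 and 0.171). In hESC and at Day 5 edgeR and DESeq2 called 0 of the 7, and 0 had an unadjusted p under 0.05.

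Markers of cell types outside the neural lineage moved with genotype at Day 12, beside the lower MEG3 and DLK1 of LIS1+/-. The 6 mesenchyme markers summed to 26.6, 20.2 and 24.2 CPM in LIS1+/- against 512, 52.2 and 192 CPM in LIS1+/+, and all 3 that were tested fell. The 4 neural crest markers summed to 6.8, 6.83 and 7.12 CPM in LIS1+/- against 242, 28.3 and 92.5 CPM in LIS1+/+, all 4 fell, and FOXD3 was at 0 in LIS1+/-. The 5 liver and yolk sac markers summed to 20.4, 11.1 and 8.83 CPM in LIS1+/- against 461, 22 and 68.1 CPM in LIS1+/+, 2 of the 3 tested fell, and FGB was at 0 in LIS1+/-. These calls are from edgeR, which called 1.4% of all tested genes at Day 12. DESeq2 called 3 mesenchyme markers, 4 neural crest markers and 1 liver and yolk sac marker. These markers were also counted in hESC, where the mesenchyme markers summed to 224 to 246 CPM in LIS1+/- hESC and 199 to 208 CPM in LIS1+/+ hESC. MEG3 had the same order as the Day 12 sums in the LIS1+/+ libraries (30.4, 10.7 and 20 CPM). DLK1 (696, 1228 and 1580 CPM) and DIO3 (21.3, 9.44 and 6.33 CPM) had other orders. An order of 3 libraries is a description and was not tested.

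Without LIS1+/+ replicate 1, the library with the highest sums, the Day 12 difference was -4.39 for MEG3 (adjusted p = 0.000822) and -1.81 for DLK1 (adjusted p = 5.53e-06, both edgeR). At Day 5, where MEG3 fell 8.83-fold, the mesenchyme markers summed to 3.29 to 12 CPM in LIS1+/- and 5.55 to 11.5 CPM in LIS1+/+, and the liver and yolk sac markers to 1.17 to 4.11 and 3.38 to 5.55 CPM, so both sums overlapped between genotypes. The neural crest markers summed to 6.44 to 18.7 CPM in LIS1+/- and 21.9 to 37.9 CPM in LIS1+/+ at Day 5, lower in LIS1+/- without overlap, and 0 of the 4 passed the test there. The part of these cell types in the Day 5 and Day 12 results was not tested beyond these values.

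The genes whose levels were most like those of a member were taken by Pearson correlation of log2 CPM over the 18 libraries, which share depth, stage and genotype groups, so r is a description. For MEG3 they were NME4 (r = 0.876), TIMM17B (0.853), ZNF562 (0.848), POLE4 (0.847) and SLC35A2 (0.839). NME4, a nucleoside diphosphate kinase, averaged 169 ± 9.94 CPM in LIS1+/- and 401 ± 92.5 CPM in LIS1+/+ hESC, 126 ± 38.8 and 467 ± 43.3 CPM at Day 5, and 109 ± 26.5 and 334 ± 151 CPM at Day 12 (SD, n = 3 each). POLE4, a subunit of a DNA polymerase, averaged 78.7 and 164 CPM, 74.1 and 150 CPM, and 59.5 and 109 CPM in the same order. Like MEG3, both had a lower mean in LIS1+/- at every stage, which the correlation selects for.

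For DLK1 the closest were FAM69C (r = 0.964), NOS2 (0.959), FRAT1 (0.957), LOC440896 (0.949) and NAV1 (0.948). NOS2, a nitric oxide synthase, averaged 3.76 and 3.69 CPM in LIS1+/- and LIS1+/+ hESC, 436 and 1036 CPM at Day 5, and 65.5 and 240 CPM at Day 12. For DIO3 they were ADAMTS18 (0.927), FOXD1 (0.919), DOCK10 (0.918), PIR (0.914) and ANP32B (0.908). FOXD1, a forkhead transcription factor, averaged 113 and 38.6 CPM in LIS1+/- and LIS1+/+ at Day 5 and 25.2 and 27.8 CPM at Day 12, and ADAMTS18, a secreted protease, 91.3 and 21.6 CPM and 21.2 and 21.4 CPM.

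Among the members DLK1 and DIO3 had r = 0.825, DLK1 and MEG3 r = 0.182, and MEG3 and DIO3 r = -0.048. With the group means removed, the same pairs had r = -0.245, 0.060 and 0.172, so the likeness of DLK1 and DIO3 over all libraries lay between groups. The genes closest to each member after removal of the group means were CHST11 (r = 0.882) for DLK1, A1BG-AS1 (0.910) for MEG3 and OAZ1 (0.883) for DIO3, and none of these was among the closest over all libraries.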

How the data were processed

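Bulk MARS-seq libraries were made from total RNA of 18 samples, per the labels' protocols. The authors deposited 1 file per library with raw counts by gene symbol, and the submitters' processing notes name cutadapt, STAR and DESeq2 and the builds GRCh37 and hg38, with roles and versions not given in the sources used here. Nor do these say whether molecular identifiers were collapsed or strand was used. The 5 closing rows of each file name no gene and were left out of totals. Of all counts in a file, 26.5 to 58.3% stood in the row for reads without a unique alignment, 11.9 to 25.4% in that for no feature and 0.418 to 0.677% in that for ambiguous reads.

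Low genes were removed by filterByExpr, given the 6 groups, which left 12215. Libraries were scaled by TMM, and all 18 entered a single robust quasi-likelihood model in edgeR 4.0.16 under R 4.3.3 (12 residual degrees of freedom, two-sided tests). The threshold was an adjusted p of 0.05, with Benjamini-Hochberg adjustment across those 12215 genes. The SE is the size of the log2 fold change divided by the square root of the F statistic of its quasi-likelihood test. Pooled counts carry exact 95% intervals. The pipeline was tested on simulated data. DESeq2 1.42.0 and the other alternatives are in the closing section.

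The members, gene lists and tests were chosen with earlier results of these data known, so their p-values are not independent support. The rule for named genes took all 6 members, PAFAH1B1, up to 4 genes of each list by smallest genotype p and 2 by smallest stage p, and 5 genes most like each member above 5 CPM. BEGAIN, PPP2R5C, DYNC1H1 and those named as filtered out were added after their values were seen. The Day 12 result of the thyroid hormone list is not reported here. Positions come from GENCODE 29 (GRCh38), which may differ from the build the authors used, and promoters from RefSeq.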

Additional observations from a re-analysis of the deposited data

Results flagged for a closer look

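The genotype difference of DLK1 (LIS1+/- over LIS1+/+) was lower at Day 12 than at Day 5 by a tested log2 difference of -1.32. For the same gene every LIS1+/- library was above LIS1+/+ in hESC and below it at Day 12, a change of -2.86 in the log2 difference that was not tested. The genotype difference of DIO3 was lower at Day 12 than at Day 5 by a tested -2.31. Both tested differences lost their call when some single libraries were left out.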

How the results depend on the processing

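The lower MEG3 of LIS1+/- at Day 5 (log2 -3.37 to -2.98) and Day 12 (-5.07 to -4.30), the lower DLK1 at Day 12 (-1.81 to -1.26) and the higher DIO3 at Day 5 (1.70 to 1.90) kept their direction and stayed past the threshold in 12 of 12 alternatives. The calls of MEG3 from Day 5 to Day 12 and of DLK1 and DIO3 for Day 12 minus Day 5 did not, as given with them. Counts of called genes moved more, and the cause was not tested. LIS1+/- against LIS1+/+ gave 60 calls in hESC, 206 with no filter, 188 with the compared libraries alone, 131 with DESeq2 and 21 to 44 with 1 library left out. At Day 5 it gave 238, 412 with no filter and 125 to 186 with 1 left out. At Day 12 it gave 171, 483 with no filter, 44 with the compared libraries alone, 352 without the 3 libraries apart in GC content, 294 with DESeq2 and 58 (without LIS1+/- replicate 3) to 332 (without LIS1+/+ replicate 3) with 1 left out. Day 12 against Day 5 in LIS1+/- gave 2020 and 1325 to 1922 with 1 left out. The genotype difference of Day 5 minus hESC gave 70, 281 with no filter, 120 with the compared libraries alone, 140 with DESeq2 and 31 to 79 with 1 left out. Day 12 minus Day 5 gave 129, 363, 68 and 205 under the same 3 settings and 60 to 168 with 1 left out. Day 12 minus hESC gave 46, 172 with no filter, 151 without the 3 libraries, 120 with DESeq2 and 11 to 136 with 1 left out. On plain totals the mean DLK1 level of LIS1+/+ hESC was 59.9 CPM, against 66 CPM with TMM.

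Whether equal replicate numbers pair the libraries of the genotypes was not settled. The correlation of deviations from the group means over 8701 genes ran from -0.207 to 0.132 for equal numbers and from -0.11 to 0.218 for unlike ones. At Day 12 equal numbers had 0.0412 to 0.122, above all unlike ones (-0.0825 to 0.0271), and at Day 5 equal numbers were all below 0 (-0.207 to -0.0435). With the replicate number as a block, the genotype comparisons gave 61 (hESC), 218 (Day 5) and 181 (Day 12) calls, and DLK1 for Day 12 minus Day 5 missed the threshold (adjusted p = 0.0539), as did SLC7A8 at Day 5 (0.0525), with no other call of a named gene changed. Depth limits MEG8, RTL1, MEG9 and the small RNA rows, and the LIS1+/- level of MEG3 at Day 12, which rests on 6 counts.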
